A study of Mus musculus with 28 samples.

Results

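H3K27ac, an acetyl mark on histone H3 that is found at active promoters and enhancers, was examined at 10 genes of the piRNA pathway (Piwil1, Piwil2, Piwil4, Ddx4, Mov10l1, Tdrd9, Tdrd1, Tdrkh, Asz1 and Mael) in mouse male germ cells. Every called peak whose line in the deposited tables named 1 of these genes alone was taken, which gave 290 of the 471458 H3K27ac peaks of the series. A peak was called a promoter peak when its edge lay within 1000 bp of a transcript start listed under that gene alone, which 84 of the 290 peaks did. A further 53 peaks on lines that named a member together with other genes were not counted, and none of them lay within that distance of a member's start.

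The mark was mapped by ChIPmentation, a chromatin immunoprecipitation in which a transposase adds the sequencing adapters while the chromatin is still bound, on formaldehyde-fixed and sonicated chromatin of germ cells obtained by magnetic sorting (MACS) or by sedimentation (STA-PUT). All mice were C57BL/6 and were either wild type (WT) or carried a knockout of Scml2 (KO), the gene of a germline Polycomb protein. The 12 H3K27ac libraries formed 6 groups of 2 replicates, which were Thy1+ spermatogonia of WT and of KO mice at postnatal day 7, c-Kit+ spermatogonia of WT and of KO mice at postnatal day 7, and 2 populations from adult KO mice, spermatocytes at pachytene (PS) and spermatids at the round stage (RS). H3K27ac of WT PS and WT RS was not analysed here, so every comparison with adult cells was made within KO mice. Between adult cells and spermatogonia, stage and age cannot be told apart, nor can the isolation method where it differed between them. The labels do not say whether the 2 replicates of a group came from separate animals, so p-values measure the spread between these libraries, which may be technical. None of the 290 peaks overlapped a peak of the 16 input libraries, which were sonicated chromatin without immunoprecipitation.

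The piRNA pathway protects the male germ line from transposons. Long precursor RNAs are cut into piRNAs, small RNAs that are carried by the PIWI proteins, in granules beside the mitochondria that hold RNA helicases and Tudor proteins. In the fetal testis piRNAs guide silencing and DNA methylation of transposons, and at the pachytene stage of meiosis a large set of further piRNAs is made from loci switched on by the transcription factor A-MYB, which also acts on genes of piRNA proteins.

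The sequences just before the start site are given for 4 members, and no enrichment result rests on these sequences. Piwil1 had the highest mean promoter enrichment of the members over the adult libraries, Mael the next highest and Asz1 the lowest, and Piwil4 had no promoter peak. Each is the 250 bases before a RefSeq start in GRCm38.p6, written 5′ to 3′ on the strand of the gene, and capitals mark matches, on either strand, to the letters AACTGNC (bound by MYB proteins), CACGTG (an E-box) or CCAAT (bound by NF-Y). Piwil4 has 2 windows, the first at a start just inside the one listed in the tables and the second at an internal RefSeq start.
Piwil1, chr5:128735996-128736245, plus strand: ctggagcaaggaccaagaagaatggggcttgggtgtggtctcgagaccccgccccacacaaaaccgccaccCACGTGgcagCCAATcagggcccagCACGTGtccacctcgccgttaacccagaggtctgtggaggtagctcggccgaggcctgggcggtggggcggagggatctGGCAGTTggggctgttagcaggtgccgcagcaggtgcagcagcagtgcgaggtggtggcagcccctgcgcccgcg
Mael, chr1:166238745-166238994, minus strand: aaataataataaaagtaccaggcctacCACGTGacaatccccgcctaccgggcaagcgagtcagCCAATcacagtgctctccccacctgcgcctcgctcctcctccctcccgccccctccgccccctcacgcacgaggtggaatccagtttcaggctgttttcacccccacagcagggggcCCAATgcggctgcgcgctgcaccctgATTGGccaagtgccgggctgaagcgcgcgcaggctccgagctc
Asz1, chr6:18109062-18109311, minus strand: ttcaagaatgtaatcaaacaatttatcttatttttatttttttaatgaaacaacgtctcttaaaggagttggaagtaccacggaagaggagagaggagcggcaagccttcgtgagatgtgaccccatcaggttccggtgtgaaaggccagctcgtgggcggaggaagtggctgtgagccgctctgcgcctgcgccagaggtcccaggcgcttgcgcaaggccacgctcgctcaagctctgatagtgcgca
Piwil4, chr9:14740673-14740922, minus strand: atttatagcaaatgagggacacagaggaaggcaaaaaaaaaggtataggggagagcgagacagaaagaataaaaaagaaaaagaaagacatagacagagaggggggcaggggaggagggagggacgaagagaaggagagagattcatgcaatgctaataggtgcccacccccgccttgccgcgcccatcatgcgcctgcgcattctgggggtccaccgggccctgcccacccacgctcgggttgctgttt
Piwil4 internal, chr9:14718388-14718637, minus strand: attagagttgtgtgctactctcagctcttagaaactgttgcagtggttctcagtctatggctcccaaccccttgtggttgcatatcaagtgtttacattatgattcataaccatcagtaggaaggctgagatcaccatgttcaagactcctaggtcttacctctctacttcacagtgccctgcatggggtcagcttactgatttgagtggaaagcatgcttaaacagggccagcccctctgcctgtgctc

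The Piwil1 window held all 3 motifs, with the MYB letters 75 bases before the start, CCAAT at 169 bases and the E-box at 154 and 179 bases. Mael had CCAAT at 43, 69 and 186 bases and the E-box at 223 bases before its start. Neither the Asz1 window nor either Piwil4 window held a match, which says only that these letters were not in these bases. Windows were at hand for 9 members, all but Piwil2. The E-box letters were found in 6 of them (Piwil1, Ddx4, Mael, Mov10l1, Tdrd1 and Tdrd9) and in 6.86% of the 27025 symbols with such windows. CCAAT was found in 6 (Piwil1, Ddx4, Mael, Mov10l1, Tdrd9 and Tdrkh) against 37.5% of symbols, and the MYB letters in 2 (Piwil1 and Tdrkh) against 12.1%. No matches overlapped each other. These counts describe letters, and no binding was measured. The share of G and C was 67.6% in the Piwil1 window, 64.0% in that of Mael, 52.0% in that of Asz1, 54.0% in the first Piwil4 window and 47.2% in the internal one, against a median of 52.4% over all windows.

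Across the libraries, the promoters of 9 of the 10 genes carried a peak in both PS and both RS libraries, and the fold enrichment there, the height of a peak over the background height of its library as the authors deposited it, was 7.57 to 35.7. In the 8 spermatogonial libraries the same promoters were either without a called peak or had one at 4.05 to 9.11. Piwil4 was the exception, with no peak within 1000 bp of its listed start in any of the 12 libraries. A promoter peak in all 4 adult libraries was common among all genes, since 67.1% of the 17923 symbols with a start listed alone had one. For the same 9 genes the lowest adult value lay above the highest spermatogonial value, which held for 21.8% of all symbols. Piwil1 and Asz1 were called in all 4 adult libraries and in no spermatogonial library, as were 5.82% of symbols.

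Most spermatogonial calls came from 1 replicate of each group. Replicate 1 libraries gave 21 of the 25 called spermatogonial member values, and replicate 2 libraries gave 4. By library, the number of members with a promoter peak was 4 and 3 in Thy1+ WT, where 59.7% and 56.4% of all symbols had one, and 4 and 1 in c-Kit+ WT, where 62.0% and 55.5% had one. In KO mice it was 7 and 0 in Thy1+ cells, against 68.0% and 58.7% of symbols, and 6 and 0 in c-Kit+ cells, against 63.5% and 56.3%. Each adult library had 9, against 76.2% and 73.7% of symbols in PS and 75.6% and 72.2% in RS. No member was called in all 12 libraries, in which 48.8% of symbols were. The background height, a relative sign of sequencing depth, was 0.754 to 1.11 in replicate 1 and 0.564 to 0.715 in replicate 2 of the spermatogonial groups. Adult libraries had 1.62 and 0.876 in PS and 1.56 and 0.849 in RS. Replicate 2 of PS and RS thus lay within the range of the spermatogonial replicate 1 libraries in background height. They held more peaks in all, 64056 and 63322 against 19135 to 36362. The part of depth in the number of calls was not tested. The read depth itself is unknown, and a promoter without a call is one whose signal was not detectable by the authors' peak calling, not one shown to lack the mark. With replicate 1 libraries alone, adult values lay above every spermatogonial value for 35.3% of symbols. The same 9 genes had to be among them, since they met the rule over all libraries, so this is no separate check. In bulk cells, fewer cells that carry a mark and less of it per cell cannot be told apart.

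**Figure D1:**
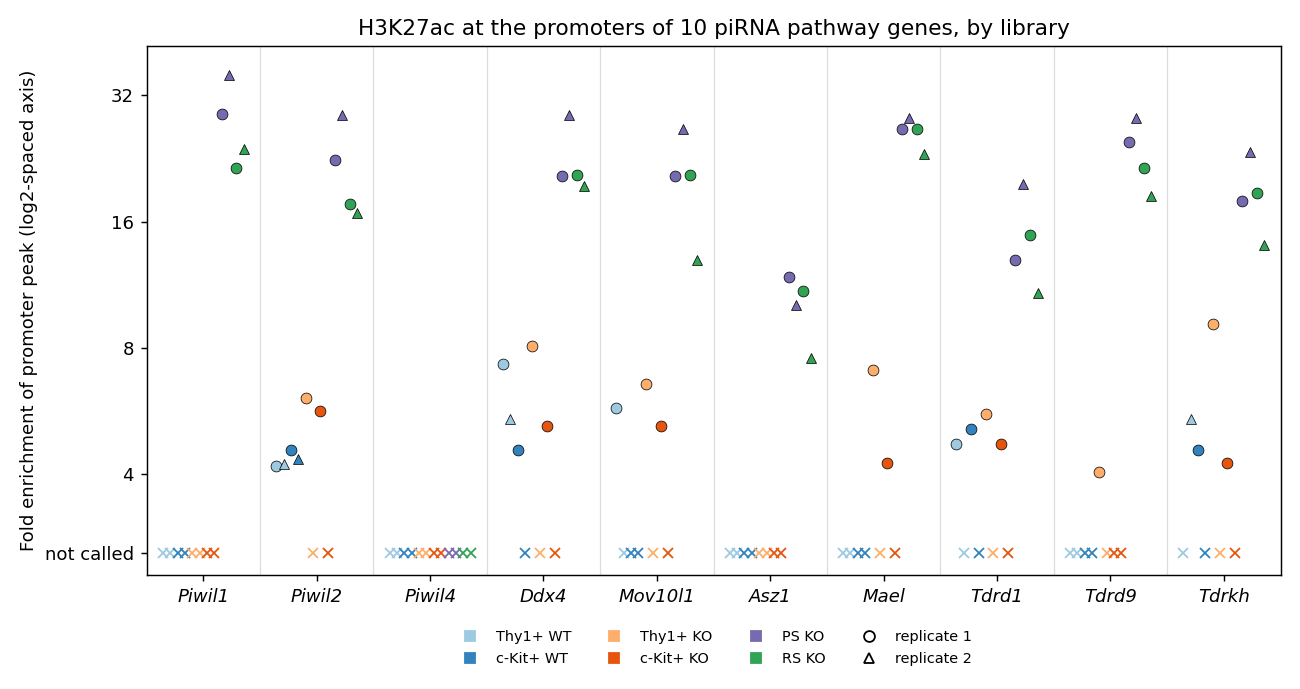
Promoter fold enrichment of the 10 genes (log2-spaced axis) in each of the 12 H3K27ac libraries, with circles for replicate 1, triangles for replicate 2 and crosses for promoters without a called peak. The adult values of 9 genes run from 7.57 to 35.7, spermatogonial values from 4.05 to 9.11, and Piwil4 has crosses throughout.

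Libraries also differed at the promoters of cell type markers. All 6 spermatocyte markers and all 6 spermatid markers had promoter peaks in each adult library, with summed fold enrichments of 126 to 181 and 60.2 to 119. In the spermatogonial libraries 2 to 4 spermatocyte markers (13.4 to 50.6) and 0 or 1 spermatid marker (0 to 5.76) had one. Of the 5 markers of differentiating spermatogonia, 0 to 3 were called in spermatogonial libraries, summing to 0 to 16.6, and 2 to 5 in adult ones, summing to 21.1 to 41.2. Of 5 listed markers of undifferentiated spermatogonia, 1 to 4 were called in spermatogonial libraries (8.16 to 34.4) and 3 in each adult one (24.9 to 52.8). Kit had a promoter peak in all c-Kit+ libraries, but also in 2 of the 4 Thy1+ libraries and in all adult libraries, and Thy1 had none in any library, so neither marked its sort. Both spermatogonial sets thus reached higher sums in adult libraries and did not single out spermatogonia. Sertoli cell markers were called 1 to 4 of 5 times in spermatogonia (9.59 to 27.4) and 3 to 5 times in adult libraries (13.5 to 59.2). Sums for Leydig cells were 0 to 16.6 and 4.30 to 25.1, for macrophages 0 to 5.57 and 4.80 to 24.3, and for endothelium 3.72 to 10.9 and 9.74 to 16.5. Peritubular markers went the other way, at 0 to 17.7 and 0 to 4.80. The part of such somatic cells in the results was not tested.

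Among the PIWI genes, Piwil1 encodes MIWI, the PIWI protein of meiotic and haploid cells that carries pachytene piRNAs. Its transcript spans chr5:128736246-128755474 on the plus strand. The promoter fold enrichment was 29.0 and 35.7 in PS and 21.5 and 23.8 in RS, and there was no call in any of the 8 spermatogonial libraries. Both stages thus stood apart from all spermatogonia, and the PS values lay above the RS values. The Piwil1 promoter peak was also among the widest of the members, at 3656 and 3266 bp in PS and 3469 and 3470 bp in RS. Further peaks lay upstream, the strongest of them with its nearer edge 1390 to 1967 bp before the start and with a fold enrichment of 6.10 and 4.80 in PS and 12.5 and 12.4 in RS, and none was called in spermatogonia.

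Piwil2 encodes MILI, a PIWI protein present from the fetal testis onward (chr14:70372480-70429094, minus strand). Its promoter had 4.19 and 4.22 in Thy1+ WT, 4.56 and 4.34 in c-Kit+ WT, 6.08 in replicate 1 of Thy1+ KO and 5.67 in replicate 1 of c-Kit+ KO, with no call in replicate 2 of either KO group. In adult cells it had 22.5 and 28.8 in PS and 17.6 and 16.8 in RS. The lowest adult value was 2.76 times the highest spermatogonial one. Piwil2 was thereby the only member called in all 4 WT spermatogonial libraries.

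Piwil4 encodes MIWI2, the nuclear PIWI protein of fetal germ cells that directs DNA methylation of transposons. Its listed start is at 14740733 of chromosome 9, on the minus strand, and no library had a peak within 1000 bp of it. In PS a short exonic peak at chr9:14739199-14739642, whose edge lay 1091 bp from the start, had 5.72 and 4.80. A limit of 2000 bp in place of 1000 bp would have counted it as a promoter peak in both PS libraries. A region further inside the gene, chr9:14717722-14718603, lay 22.6 kb downstream of the listed start. Merged over the libraries, it contains the internal RefSeq start at 14718387 shown above, which the tables did not list. Called peaks covered that start in 4 libraries and lay within 1000 bp of it in 9. The region was called in 7 of the 8 spermatogonial libraries, at 5.24 and 4.83 in Thy1+ WT, 5.13 in replicate 1 of c-Kit+ WT, 8.61 and 6.40 in Thy1+ KO, and 5.20 and 4.66 in c-Kit+ KO. PS had 5.72 and 4.80, and neither RS library had a call. PS values thus lay inside the spermatogonial range, and this was the member region with the most spermatogonial calls.

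Of the RNA helicase genes, Ddx4 encodes the mouse homologue of VASA, a germ cell protein of the granules (chr13:112598333-112652310, minus strand). Its promoter had 7.34 and 5.43 in Thy1+ WT, 4.56 in replicate 1 of c-Kit+ WT, 8.10 in replicate 1 of Thy1+ KO and 5.20 in replicate 1 of c-Kit+ KO, with no call in the other spermatogonial libraries. PS had 20.6 and 28.8 and RS 20.7 and 19.5, so PS and RS overlapped and both stood above all spermatogonia. Mov10l1 encodes the helicase that binds piRNA precursors (chr15:88982994-89055152, plus strand). It had 5.76 in replicate 1 of Thy1+ WT, 6.58 in replicate 1 of Thy1+ KO, 5.20 in replicate 1 of c-Kit+ KO, 20.6 and 26.7 in PS, and 20.7 and 13.0 in RS. Tdrd9 encodes a helicase with a Tudor domain that works with MIWI2 (chr12:111971559-112068854, plus strand). A single spermatogonial library, Thy1+ KO replicate 1, had a Tdrd9 call, at 4.05, against 24.8 and 28.3 in PS and 21.5 and 18.4 in RS. The lowest adult value was 2.40 times the highest spermatogonial value for Ddx4, 1.97 times for Mov10l1 and 4.54 times for Tdrd9.

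Tudor and mitochondrial proteins hold the granules together. Tdrd1, whose Tudor domains bind methylated MILI, lies at chr19:56826209-56870012 on the plus strand. Its first promoter had 4.72 in replicate 1 of Thy1+ WT, 5.13 in replicate 1 of c-Kit+ WT, 5.57 and 4.73 in replicate 1 of the Thy1+ and c-Kit+ KO groups, 13.0 and 19.7 in PS, and 14.9 and 10.8 in RS. Tdrkh, a Tudor protein of the mitochondrial surface needed to trim piRNA 3′ ends, lies at chr3:94413318-94431499 on the plus strand. Its promoter had 5.43 in replicate 2 of Thy1+ WT, 4.56 in replicate 1 of c-Kit+ WT, 9.11 and 4.26 in replicate 1 of the KO groups, 17.9 and 23.5 in PS, and 18.8 and 14.1 in RS. In both genes PS and RS overlapped, and the adult values exceeded the highest spermatogonial value by 1.94 times for Tdrd1 and by 1.54 times for Tdrkh, the closest approach among the 7 genes with a spermatogonial call. Asz1 encodes GASZ, a protein of the outer mitochondrial membrane that organizes the granules (chr6:18050964-18109061, minus strand). It had no spermatogonial call, and 11.8 and 10.1 in PS and 11.0 and 7.57 in RS, the lowest adult values of the 9 genes.

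Mael encodes Maelstrom, a granule and nuclear protein needed for transposon silencing and pachytene piRNA production (chr1:166201385-166238744, minus strand). Its promoter had 7.09 and 4.26 in replicate 1 of the Thy1+ and c-Kit+ KO groups, with no other spermatogonial call, then 26.7 and 28.3 in PS and 26.6 and 23.3 in RS. The adult values varied little for Mael, whose mean was 27.5 ± 1.11 in PS and 24.9 ± 2.36 in RS (SD, n = 2 each). By comparison the mean of Piwil1 was 32.4 ± 4.77 in PS and 22.7 ± 1.62 in RS, and that of Asz1 was 11.0 ± 1.20 and 9.26 ± 2.39.

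Fold enrichment depends on the library's background, so each member was also ranked among all called promoters of its own library. On that scale 30 of the 36 adult member values, and none of the 25 called spermatogonial values, lay above the median promoter of the library. Spermatogonial members sat between the 0.919th and the 26.6th percentile. Piwil1 reached 89.1 and 94.2 in PS and 75.7 and 89.3 in RS, and Mael 83.5 and 81.4 in PS and 89.6 and 88.3 in RS. Asz1 stayed low, at 33.6 and 25.8 in PS and 34.2 and 23.3 in RS, while Tdrd1 lay around the median (37.1 and 55.7 in PS, 50.4 and 39.8 in RS). Piwil1, Piwil2, Ddx4, Mael, Mov10l1, Tdrd9 and Tdrkh were above the median in all 4 adult libraries. By percentile, too, the adult values of 9 genes lay above all their spermatogonial values, against 17.3% of symbols.

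**Figure D2:**
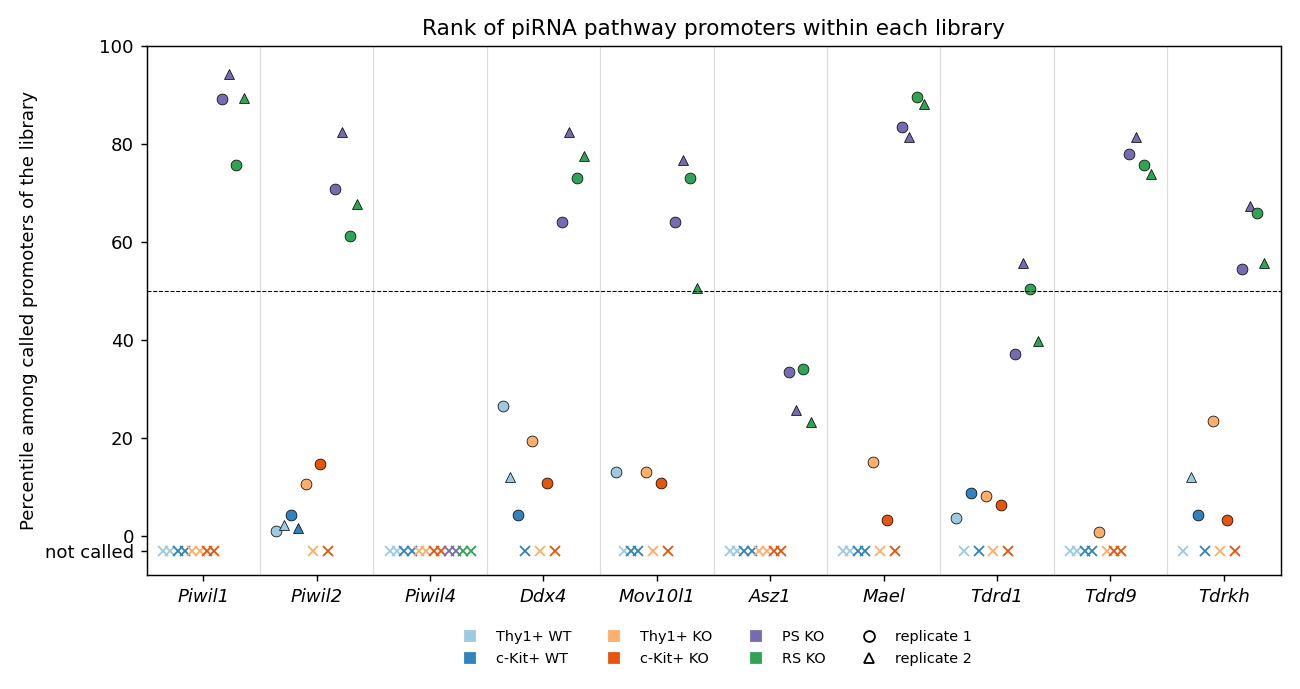
Percentile of each member's promoter fold enrichment among all called promoters of the same library, by gene, with the dashed line at the median promoter of the library. Called spermatogonial values lie at or below 26.6, whereas Piwil1 lies between 75.7 and 94.2 in the adult libraries.

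Peak width showed the same division. Adult promoter peaks of the members were 957 to 3656 bp long and spermatogonial ones 144 to 765 bp. The median length over the members was 1707 to 1879 bp in adult libraries, close to the 1537 to 1854 bp median of all promoter peaks there. In spermatogonia it was 146 to 561 bp, under the median of all promoter peaks of 757 to 1345 bp. The highest summit lay 0 to 573 bp from the start, with an adult median of 220 bp.

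The difference between adult and spermatogonial KO cells was tested with limma on log2 fold enrichment, after each library had been centred on its median region, with Benjamini-Hochberg adjustment over all regions and a threshold of 0.05. The planned fit, restricted to regions called in all 8 KO libraries, held no member, since replicate 2 of the Thy1+ and c-Kit+ KO groups had no member promoter. It called 40.6% of 10287 regions, 12.8% higher in adult cells. In the fit that set each uncalled library to the lowest fold enrichment of that library, the first promoters of 9 members were tested. All 9 were higher in adult cells at the adjusted threshold, against 11.8% of 26309 regions called higher. The second listed start of Tdrd1 was tested apart, at 0.59, and did not pass (limma adjusted p = 0.114). Regions enter this fit through the libraries in which they are called, so Piwil1 and Asz1 entered through adult calls alone, Tdrd9 had 1 spermatogonial call, and the estimates rest on the substituted values. Piwil1 had the highest estimate, a log2 difference of 2.25 (SE 0.232, adjusted p = 0.000394), followed by Tdrd9 at 1.97 (SE 0.206, adjusted p = 0.000394) and Mael at 1.87 (SE 0.161, adjusted p = 0.000367). Ddx4, Piwil2, Mov10l1, Tdrkh and Tdrd1 had 1.50, 1.50, 1.41, 1.26 and 1.04. Asz1 had the lowest, 0.82 (SE 0.230, adjusted p = 0.0209), and without c-Kit+ KO replicate 1 it was 0.68 (adjusted p = 0.0862).

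PS were also set against c-Kit+ spermatogonia of KO mice, the nearest stages sampled from the 2 ages. The planned fit held no member promoter, and it called 31.9% of 12501 regions, 6.83% higher and 25.1% lower in PS. With uncalled libraries at their lowest value, 8 of 9 first promoters of members were higher in PS, against 5.88% of 40536 regions, with estimates for the 9 of 0.61 to 2.16. In that fit 16581 regions were called lower in PS, and the median estimate over all regions was -0.50. No member promoter was called in c-Kit+ KO replicate 2, and Piwil1, Tdrd9 and Asz1 in neither c-Kit+ KO library, so they entered through PS or through PS and 1 c-Kit+ library, and the estimates and the count rest on the substituted values. The promoter that missed the threshold was Asz1 (limma adjusted p = 0.0585). Without c-Kit+ KO replicate 2 no member promoter passed, and neither did any other region, although 8891 of 39452 regions had an unadjusted p under 0.05.

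The internal Piwil4 region went the other way on the centred scale. The fit of adult against spermatogonial KO cells gave a log2 difference of -1.24 (SE 0.184, limma adjusted p = 0.00113), with RS, where it had no call, at the lowest value, and 21.1% of all regions were called lower in that fit. PS against c-Kit+ KO cells, where all 4 libraries had a call, gave -0.99 in the planned fit (SE 0.201, adjusted p = 0.00273), with raw fold enrichments of 5.72 and 4.80 against 5.20 and 4.66. Without centring that difference was 0.09 (adjusted p = 0.788), with quantile normalization it was -0.29 (adjusted p = 0.291), and without c-Kit+ KO replicate 2 the centred estimate was -0.83 (adjusted p = 0.0916). The median region of that fit had a log2 fold enrichment of 3.17 and 2.81 in c-Kit+ KO and 4.04 and 4.09 in PS, so the raw height of the Piwil4 region was alike in both stages while that of the median region was higher in PS.

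**Figure D3:**
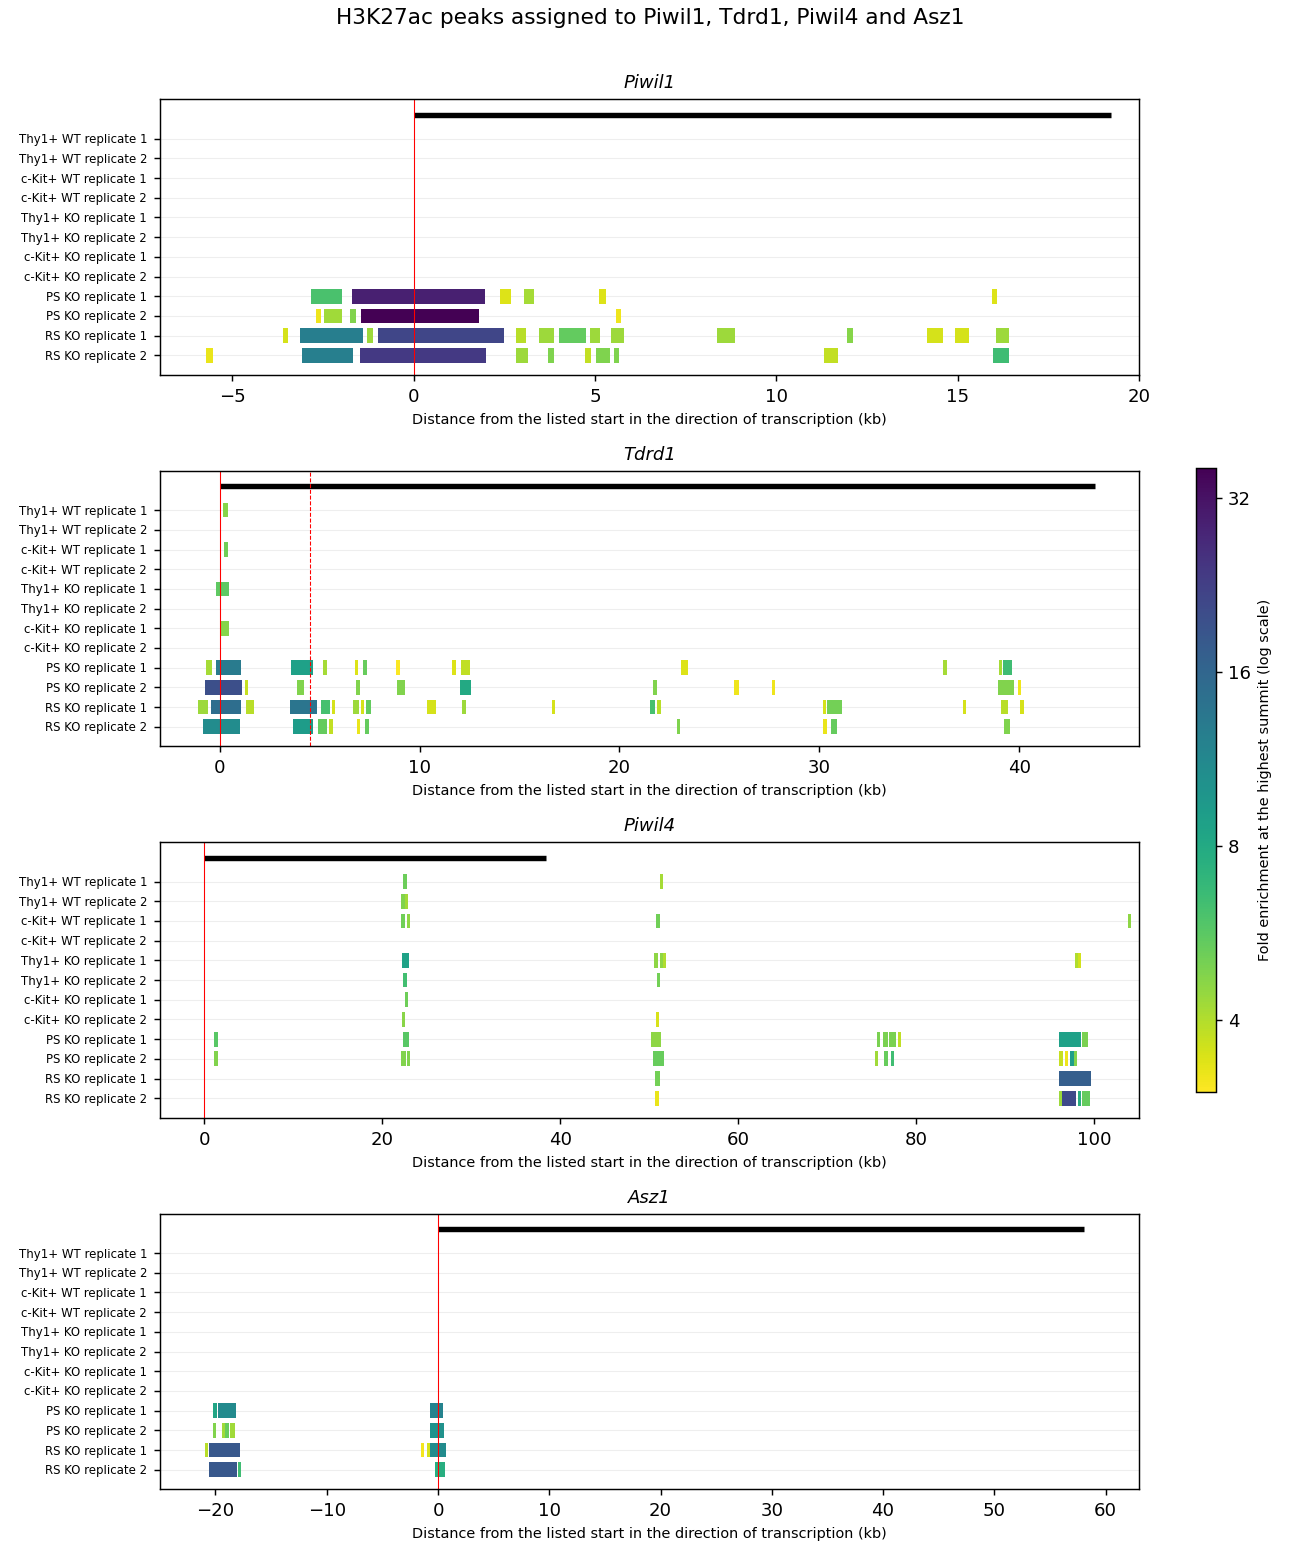
Called H3K27ac peaks around Piwil1, Tdrd1, Piwil4 and Asz1 in each library, by distance from the listed start in kb, coloured by fold enrichment, with the start as a red line, an internal start of Tdrd1 as a dashed red line and the transcript as a black bar. Piwil1 peaks occur in adult rows alone, and the Piwil4 map shows no peak at the red line but peaks 22.6 kb downstream in 7 of the 8 spermatogonial rows and both PS rows.

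Between RS and PS the first promoters of the members, which leave out the second listed start of Tdrd1, did not pass the threshold. The fit covered 21329 regions called in all 4 adult libraries, of which 20.2% were called, 12.4% higher and 7.79% lower in RS. With 1 value per promoter in place of regions, 884 of 12020 promoters passed, a smaller share. The fit of regions tested 17 member regions, and 0 of the 9 first promoters passed, with none at an unadjusted p under 0.05. The log2 estimates (RS minus PS) ran from -0.37 for Piwil2 (95% interval -0.84 to 0.09, limma adjusted p = 0.236) to 0.05 for Mael (-0.38 to 0.48, adjusted p = 0.879). Piwil1 had -0.31 (-0.81 to 0.18, adjusted p = 0.352). These intervals leave room for differences of either sign for each promoter.

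Away from the 9 first promoters, 8 further member regions were tested in that comparison. Of these 4 passed, all higher in RS, against 12.4% of all regions. That base includes promoters, of which a smaller share passed. The share over regions away from promoters was not computed, so the count does not set the members apart. At the second listed start of Tdrd1, at 56830712 of chromosome 19, PS had 8.77 and 4.80 and RS 13.7 and 9.20, a log2 difference of 0.98 (SE 0.294, limma adjusted p = 0.0430). All RS values there exceeded the PS values, while the first Tdrd1 promoter had an estimate of -0.14 (adjusted p = 0.709). The difference between the 2 Tdrd1 starts was not tested. A region at chr6:18126751-18129624, 17690 bp upstream of Asz1, had 11.1 and 5.33 in PS and 18.4 and 18.4 in RS, a log2 difference of 1.45 (SE 0.326, limma adjusted p = 0.0164). It was more enriched than the Asz1 promoter itself in both RS libraries.

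At the 3′ end of Mov10l1, chr15:89054326-89057233, PS had 12.6 and 7.46 and RS 17.6 and 15.1, a log2 difference of 0.95 (SE 0.268, limma adjusted p = 0.0355). In PS replicate 2 that peak was listed under the neighbours Panx2 and Trabd, so the region is not tied to Mov10l1 alone. A region at chr9:14641142-14644767, 59.4 kb past the end of Piwil4 and listed under it by nearness, had 8.77 and 9.06 in PS and 17.2 and 20.6 in RS, with 1 spermatogonial call, 4.05 in Thy1+ KO replicate 1. Its log2 difference was 1.27 (SE 0.226, adjusted p = 0.00941). The remaining 4 regions, 1 of Mov10l1, 1 of Piwil4 and 2 of Tdrd1, had estimates of -0.16 to 0.48 and did not pass. Without PS KO replicate 2 no region of the genome passed this test, and the 4 estimates were then 0.41 for the Tdrd1 start, 0.79 for Asz1, 0.43 for Mov10l1 and 1.16 for Piwil4 (adjusted p = 0.344, 0.160, 0.219 and 0.159).

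**Figure D4:**
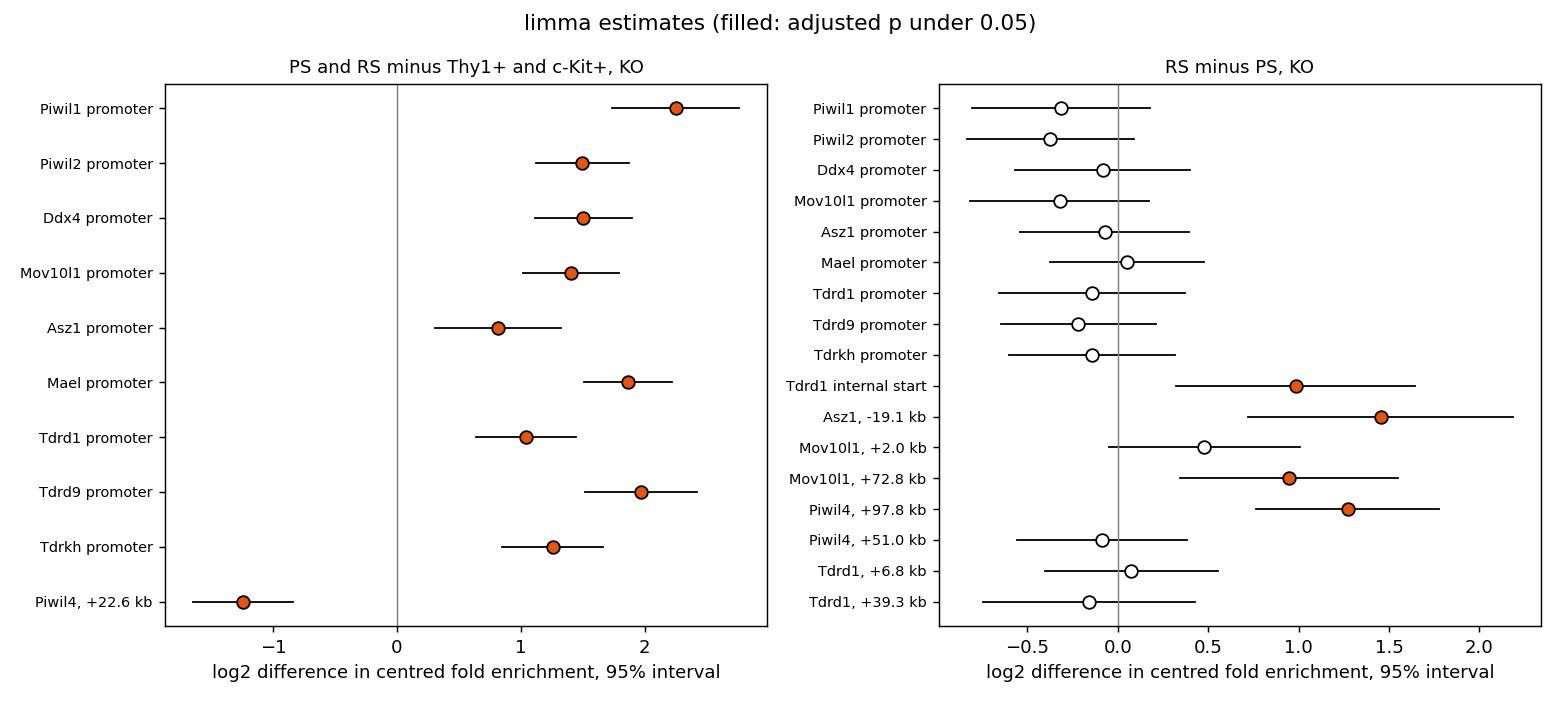
limma log2 differences with 95% intervals for member regions, adult minus spermatogonial KO cells on the left, with uncalled libraries at their lowest value, and RS minus PS on the right, filled where the adjusted p is under 0.05. All 9 first promoters lie above 0 on the left, where the internal Piwil4 region is at -1.24. On the right no first promoter is filled.

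The members had many smaller peaks besides their promoters. Merged over the libraries, the 290 peaks formed 108 regions, 12 at promoters and 96 elsewhere, of which 78 lay within a gene. Of the 96, 55 were called in RS and in no other stage, 19 in PS alone and 20 in both. Another 1 was called in spermatogonia alone, and the internal Piwil4 region in spermatogonia and PS. In all, 4 had any spermatogonial call. Only 25 of the 96 were called in both RS libraries and 13 in both PS libraries, so many stage-only regions rested on 1 library. The same split over all regions was not computed, so these counts do not set the members apart. Adult libraries held more peaks in all, 63322 to 73316 against 17877 to 36362 in spermatogonial ones. The median of the highest fold enrichment of the 96 regions was 4.30, against 25.1 for the promoter regions. The lowest value of any peak was 3.05 to 3.25 in the adult libraries. Tdrd1 had 13 and 11 peaks in PS and 19 and 10 in RS, while Tdrkh had 1 in each adult library. Piwil1 had 6 and 5 in PS and 14 and 10 in RS, and Mael 3 and 1 against 9 and 9. Piwil4 had 9 and 12 in PS and 2 and 5 in RS. As a share of all peaks of the library, member peaks made up 0.0782% and 0.0687% in PS and 0.116% and 0.0884% in RS.

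Within spermatogonia the members gave no call for genotype or for stage. The planned fits held no member promoter, since none formed a region called in every library of any of these comparisons. Piwil2 had a promoter peak in all 4 WT libraries, but the peak in c-Kit+ WT replicate 2 did not overlap the others. Taken as a promoter window, Piwil2 had a log2 difference of 0.12 for c-Kit+ against Thy1+ WT cells and did not pass. Over all regions, these fits called 1 of 10835 regions (0.00923%) for KO against WT in Thy1+ cells, 0 of 11313 in c-Kit+ cells (543 at an unadjusted p under 0.05), 22 of 10177 (0.216%) for c-Kit+ against Thy1+ cells in WT and 0 of 11134 in KO (1255 at an unadjusted p under 0.05). Single libraries decided these counts: the stage comparison gave 878 regions in KO without Thy1+ KO replicate 2, 0 in WT without Thy1+ WT replicate 1 or without c-Kit+ WT replicate 2, and 5 in WT without Thy1+ WT replicate 2, and the genotype comparison in Thy1+ cells gave 91 without Thy1+ KO replicate 2 and 0 without any other library. With libraries lacking a call set to their lowest value, 5 member promoters could be tested for KO against WT in Thy1+ cells, with log2 estimates of -0.71 for Ddx4 to -0.13 for Tdrkh, and 0 passed (limma adjusted p of at least 0.931), against 0% of 17182 regions. These signs depended on centring: without it, 4 of the 5 estimates were positive, 0.20 for Piwil2, 0.14 for Mov10l1, 0.16 for Tdrd1 and 0.41 for Tdrkh, and that of Ddx4 was -0.18. In c-Kit+ cells 3 were tested, at -0.25 to 0.02. For c-Kit+ against Thy1+ cells 3 were tested in WT (-0.56 to 0.13) and 6 in KO (-0.20 to 0.38, or -0.70 to -0.12 without centring), and 0 passed in either, against 1.26% and 0% of all regions. The internal Piwil4 region, called in both libraries of both Thy1+ groups, had a genotype estimate of 0.03 (limma adjusted p = 0.996).

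Of 20 other pathway genes, 18 had a start listed alone, and 14 of these had a promoter peak in all 4 adult libraries, near the 67.1% of all symbols. In 13 the adult values all lay above the spermatogonial ones, against 21.8% of all symbols. The planned fit of adult against spermatogonial KO cells could test 2 of them, and both were higher in adult cells. Mybl1, the gene of A-MYB, had 10.1 and 5.76 in Thy1+ KO, 5.20 and 5.25 in c-Kit+ KO, 24.8 and 27.7 in PS and 17.2 and 14.6 in RS, with a log2 difference of 1.01 (limma adjusted p = 5.6e-05). Exd1, whose protein takes part in the production of MIWI2-bound piRNAs, had 15.7 and 8.95 in Thy1+ KO, 8.51 and 7.00 in c-Kit+ KO, 23.6 and 24.0 in PS and 21.5 and 19.5 in RS, with 0.53 (limma adjusted p = 0.00329). With uncalled libraries at their lowest value, 13 of 14 were higher, at 0.53 to 1.81, against 11.8% of all regions, and Fkbp6 did not pass at 0.37 (limma adjusted p = 0.153). Apart from Mybl1 and Exd1 these promoters lacked a call in at least 1 spermatogonial library, and Tdrd6, with the highest estimate, and Gtsf1 entered through adult calls alone, so the count rests on substituted values. Between RS and PS 0 of the 14 passed, against 20.2% of all regions, but 884 of 12020 promoters where promoter windows were fitted. Tdrd6 and Gtsf1, like Piwil1 and Asz1, were called in adult libraries alone.

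The genes whose promoter profile was most like that of Piwil1 over the 12 libraries were Adam2, a sperm surface protein, Ldhal6b, a lactate dehydrogenase relative, and Dnah17, an axonemal dynein (Pearson r = 0.999 each, on centred log2 fold enrichment with uncalled libraries at the lowest value). Those most like Piwil2 were Sord (r = 0.983), Spint2 (0.982) and Pkdrej (0.981). Among the members, Piwil1 had r = 0.997 with Tdrd9 and 0.970 with Piwil2. The points share libraries and fall into 2 clusters, spermatogonial and adult, so these values mainly describe that division.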

How the data were processed

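Peak tables of 28 libraries were used, 12 of H3K27ac and 16 of input. Bowtie, MACS2 and the mm10 build are named, without versions, in the submitters' processing notes. The authors deposited 1 table per library. Its columns, per the file headers, held peak and summit positions, the signal height at the summit (pileup), fold enrichment (a ratio) and −log10 p and q values. In each library that deposited ratio was (height + 1) over (background + 1), and the background was constant. Read depth is unknown, so no counting interval was computed.

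Groups and replicate numbers came from the sample titles. The genes, the lists of other pathway genes and cell type markers, and the tests were chosen with earlier results of these data known. The genes named outside the members were the listed pathway genes and, per member, those with the most similar promoter profile. A promoter value was the highest fold enrichment of a peak within 1000 bp of a listed start. For tests, peaks overlapping by at least 1 bp were merged into regions, and log2 fold enrichment, centred on each library's median region, was fitted with limma 3.58.1 (R 4.3.3), which was tested on simulated data. That median was taken over regions called in every library compared, also where uncalled libraries were set to their lowest value. The planned fits used regions called in every library compared. Other steps used Python 3.11.15, pandas 2.3.3 and numpy 2.4.6. Sequences came from RefSeq promoter windows of GRCm38.p6, matched by symbol for 9 of 10 genes. Alternatives were uncalled libraries at their lowest value, quantile normalization, no centring, peaks with a −log10 q of at least 5, equal numbers of strongest peaks, promoter windows, removal of regions overlapping input peaks, a replicate block and leaving out each library. Combinations with the uncalled setting were added after the data were seen.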

Additional observations from a re-analysis of the deposited data

How the results depend on the processing

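The results are limited by 2 libraries a group, unknown depth and uncalled promoters. Fits of regions called in every library tested no member promoter outside RS against PS, where 0 of the 9 first promoters passed. Promoter windows and some fits without 1 library tested 1 to 6 in other comparisons, and 0 passed. With uncalled libraries at the lowest value, 8 passed for PS against c-Kit+ cells (0 without c-Kit+ KO replicate 2, 5 of 6 tested without PS KO replicate 2) and 9 for adult against spermatogonial KO cells (7 to 9 without each library, with 7 of 7 tested where an adult library was left out). These leave-one-out fits with uncalled libraries were added after seeing the data. An arm of 1 library was assumed to vary like the other groups. Peaks with a −log10 q of at least 5 left 2 members called in Thy1+ WT replicate 1, 1 in c-Kit+ KO replicate 1 and 0 in Thy1+ WT replicate 2 and both c-Kit+ WT libraries. Equal numbers of strongest peaks left 1 in c-Kit+ WT replicate 1 and 3 in c-Kit+ KO replicate 1. The separation of adult from spermatogonial values held for 9 genes by within-library percentile. With replicate 1 libraries alone it had to hold for the same 9, given the result over all libraries. The other alternatives were not applied to it.

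For RS against PS no first promoter of a member passed under any setting, and estimates near 0 changed sign. The stricter peaks gave 0.076 for Ddx4, 0.018 for Tdrd1, 0.017 for Tdrkh and 0.088 for Asz1, and promoter windows gave 0.071, 0.013, 0.012 and 0.083. Quantile normalization gave 0.054 for Ddx4 and 0.0037 for Tdrkh, and no centring gave -0.14 for Mael. Leaving out each library gave -0.33 to 0.020 for Ddx4, -0.046 to 0.092 for Mael, -0.45 to 0.024 for Tdrd1 and -0.32 to 0.031 for Asz1. The internal Piwil4 region, PS against c-Kit+, turned to 0.089 without centring. The cause of these changes was not tested. The second Tdrd1 start missed the threshold with quantile normalization (limma adjusted p = 0.0608), with uncalled libraries at the lowest value (0.0756) and without RS KO replicate 1 (0.113). The Mov10l1 3′ region missed it with uncalled libraries at the lowest value (0.0615) and without either RS library (0.0534 and 0.0745), and the distal Piwil4 region without PS KO replicate 1 (0.0521).

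Counts over all regions moved more. PS against c-Kit+ cells gave 3992 regions, 784 with quantile normalization, 2013 with stricter peaks, 2312 in promoter windows, 8940 without centring and 0 without c-Kit+ KO replicate 2. RS against PS gave 4309, 1982 with stricter peaks, 884 in promoter windows, 10816 with uncalled libraries and 0 without PS KO replicate 2. Adult against spermatogonial KO cells gave 1318 higher and 2860 lower, but 5132 and 123 without centring. KO against WT in Thy1+ cells gave 1 region, 9 with stricter peaks and 0 with uncalled libraries. The stage comparison in WT gave 22, but 204 with uncalled libraries, 4 in promoter windows, 2 without centring and 0 with quantile normalization or stricter peaks. On the centred scale, deviations correlated weakly between libraries of the same replicate number (-0.0079 to 0.166, above 0.1 in 5 of 24 pairs). Centring removes a shift of a whole library, so these correlations cannot show whether replicates shared such a shift. Replicate 1 had the higher background height in every H3K27ac group. The replicate block is given only as a setting. With the block 4299, 4456 and 3705 regions passed for adult against spermatogonial cells, RS against PS and PS against c-Kit+ cells. For c-Kit+ against Thy1+ cells the block moved the count from 0 to 47 in KO and from 22 to 58 in WT, and for KO against WT from 1 to 0 in Thy1+ and from 0 to 1 in c-Kit+ cells. With the block and uncalled libraries at the lowest value these 4 counts were 1258, 0, 160 and 2. In that setting 9 first promoters of members passed for adult against spermatogonial cells and 8 for PS against c-Kit+ cells, as without the block. For RS against PS 0 first promoters passed.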
